A study of Mus with 15 samples.

Results

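Transcripts of the mouse T cell receptor beta locus were measured in bulk RNA from 5 gates of sorted thymocytes. The members were chosen by position and name, as all genes of the deposited count table that lie in the locus on chromosome 6 (GRCm38) and have a symbol that begins with Trbv, Trbd, Trbj or Trbc. They run from Trbv1, which starts at position 40891229, to Trbv31, which ends at position 41558452. These were 53 of 55573 genes, namely 35 variable (V), 2 diversity (D) and 14 joining (J) segments and 2 constant (C) regions. The 53 lie in 1 locus, 52 on the plus strand and Trbv31 on the minus strand. RefSeq annotates 13 of the 35 V segments and Trbj2-6 as pseudogenes.

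The beta chain of the T cell receptor is encoded by an exon that each thymocyte assembles itself. The RAG recombinase joins a D segment to a J segment and then a V segment to the joined DJ, and splicing links the VDJ exon to Trbc1 or Trbc2. Trbd1 and the Trbj1 cluster lie before Trbc1, and Trbd2 and the Trbj2 cluster lie between Trbc1 and Trbc2, so a V segment upstream that joins to the Trbj2 cluster usually deletes Trbc1 from that chromosome. In a sorted population, V counts therefore sum over many cells that each use few of the segments, and they depend both on how many cells use a segment and on how much RNA each cell makes.

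The 15 libraries, 3 for each gate, came from thymus of female mice aged 6 weeks, labelled C57Bl/6 x Foxp3-GFP, with no treatment named. All gates share the depletion of CD8-bearing cells with magnets and a flow sort of live TCRb+ CD4+ CD8- CD73- cells in a single experiment, so every gate was chosen to carry the beta chain on the surface. Conventional CD4 single-positive (CD4SP) cells were Bst2-, CD25- and Foxp3-. CD25+ progenitors of regulatory T cells (Tregs) were Bst2-, CD25+ and Foxp3-, and FOXP3lo progenitors were Bst2-, CD25- and Foxp3lo. Mature Tregs were Bst2-, CD25+ and Foxp3+, and Bst2+ cells carried CD25, Foxp3 or both. Replicates 40, 42 and 43 are named as biological replicates without saying whether each was a mouse or a pool, so the p-values measure only how these samples vary, which may be partly technical.

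Libraries held 10816064 to 23758157 counts, of which 7300 to 21341 fell on the 53 members. The CD4 T cell list (Cd4, Cd3e, Cd3d, Trac, Lck and Cd5) was detected in full in every gate, at a summed 2115 to 3247 CPM (counts per 1000000 of the library size scaled with TMM factors). The Bst2+ libraries stood apart. Their 7 macrophage and dendritic cell markers summed to 426 to 715 CPM, against 1.61 to 7.10 CPM elsewhere, and their 6 markers of CD8 and double-positive thymocytes to 758 to 1293 CPM, against 19.9 to 202 CPM. Each of these 13 markers had counts in the Bst2+ gate, Siglech in 1 of its 3 libraries and the others in all 3, and the part of such cells in the Bst2+ values below was not tested. Results among the other 4 gates are therefore given with the Bst2+ libraries in the fit and without them.

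Beta constant region transcripts fell in both CD25+ gates against conventional CD4SP cells, and edgeR called no member in FOXP3lo progenitors with all 15 libraries. The constant regions, which every productive beta transcript contains, gave 468, 576 and 572 CPM in the 3 conventional libraries and 315, 323 and 353 CPM in CD25+ progenitors. They gave 460, 468 and 481 CPM in FOXP3lo progenitors and 299, 324 and 345 CPM in mature Tregs. All libraries of the CD25+ progenitors and mature Tregs were thus below all libraries of the other Bst2- gates, while the 2 CD25+ gates overlapped each other, as did conventional cells and FOXP3lo progenitors. CPM are relative to the other RNA of a library, so they do not give transcript per cell. In these bulk samples, fewer cells with a transcript, less transcript per cell and more of other RNA per cell cannot be told apart.

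Summed V segments did not give the same order. They reached 336 ± 35.9 CPM (SD, n = 3) in conventional cells, 318 ± 18.5 CPM in FOXP3lo progenitors, 254 ± 9.34 CPM in mature Tregs and 207 ± 21.1 CPM in CD25+ progenitors. Mature Tregs, at 248 to 264 CPM, lay above all CD25+ progenitor libraries, at 191 to 231 CPM, and below all conventional libraries, at 296 to 364 CPM. Against conventional cells CD25+ progenitors differed by −38.4% in the V sum and −38.7% in the C sum, and mature Tregs by −24.7% and −40.1%.

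Summed J segments, the short exons next to the constant regions, were at 95.2 ± 0.630 CPM in conventional cells and 92.9 ± 6.60 CPM in FOXP3lo progenitors. They were at 58.7 ± 7.08 CPM in CD25+ progenitors and 56.1 ± 1.55 CPM in mature Tregs. In mature Tregs the difference in the J sum from conventional cells, −41.1%, was therefore near that of the C sum and not that of the V sum. A read pair from a spliced transcript can touch V, J and C together, and the counting command in the file header sets no option for pairs that overlap several genes, so the sums of V, J and C are not counts of the same molecules.

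**Figure D1:**
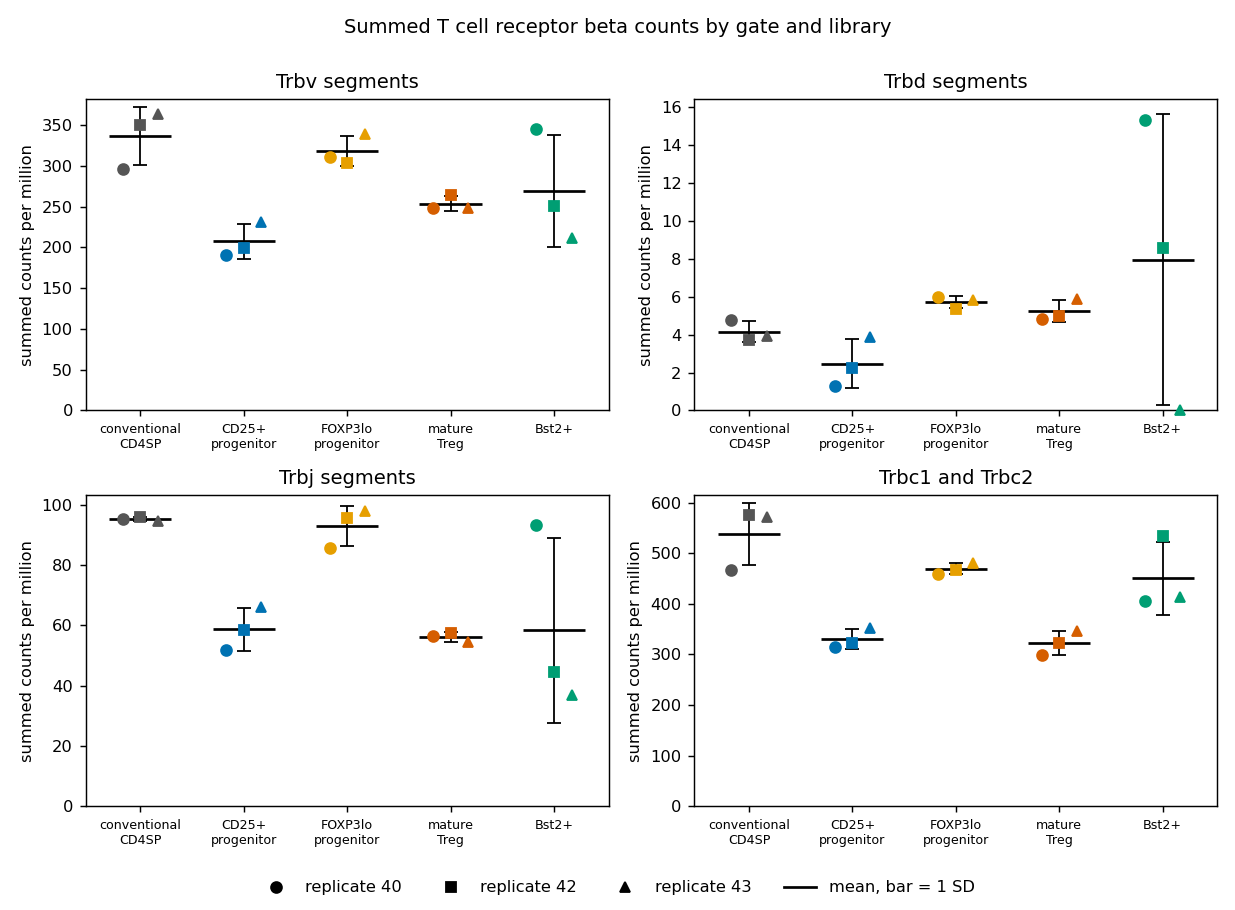
Summed CPM of the Trbv, Trbd, Trbj and Trbc members (y axes, from 0) in each library (points, shaped by replicate number) of the 5 gates (x axes), with the mean (line) and 1 SD (bar) of 3 libraries. The J and C panels show both CD25+ gates below conventional cells and FOXP3lo progenitors, the V panel places mature Tregs between CD25+ progenitors and those 2 gates, and the Bst2+ libraries spread most in the V, D and J panels.

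The ratio of V to C counts showed this difference within each library. There were 62.5 ± 1.59 V counts per 100 C counts in conventional cells, 62.7 ± 2.54 in CD25+ progenitors and 67.6 ± 2.74 in FOXP3lo progenitors. Mature Tregs had 83.0, 81.7 and 71.9 V counts per 100 C counts, above the highest other Bst2- library at 70.3. J counts per 100 C counts overlapped among these gates, at 19.8 ± 1.03 in FOXP3lo progenitors, 17.8 ± 2.18 in conventional cells, 17.5 ± 1.57 in mature Tregs and 17.7 ± 1.16 in CD25+ progenitors. The V to C ratio of mature Tregs thus lay above the other Bst2- gates while the J to C ratio did not. These ratios are descriptions and were not tested.

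The D segments are read here through their own exons of 12 bases (Trbd1) and 14 bases (Trbd2), which a V-joined transcript retains only in part. Summed D levels were 4.15 ± 0.554 CPM in conventional cells, 2.46 ± 1.30 CPM in CD25+ progenitors, 5.72 ± 0.322 CPM in FOXP3lo progenitors and 5.23 ± 0.574 CPM in mature Tregs. FOXP3lo progenitors and mature Tregs lay above all conventional libraries, which reached 4.77 CPM. Trbd1 made up 66.7% to 89.4% of the D counts in these 12 libraries. In the fit with all 15 libraries neither Trbd1 nor Trbd2 passed the test in any of the 8 comparisons, the interaction of CD25 and FOXP3 included. Trbd1 passed without the Bst2+ libraries, at a log2 fold change of −1.40 ± 0.40 (SE, edgeR adjusted p = 0.0044) in CD25+ progenitors against FOXP3lo progenitors and 1.16 ± 0.41 (edgeR adjusted p = 0.024) in mature Tregs against CD25+ progenitors.

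Each gene was tested with edgeR's quasi-likelihood test over all 16069 genes that passed the filter on low counts, with a gene called where its p, adjusted by Benjamini and Hochberg's method, was under 0.05. Of the 53 members 41 passed the filter (23 V, 2 D, 14 J and 2 C), and the 12 others were V segments that RefSeq annotates as pseudogenes. In CD25+ progenitors against conventional cells, 4 of the 41 fell and 0 rose, where 5.66% of all genes fell and 5.98% rose. These were Trbc1, Trbc2, Trbv3 and Trbv29. The estimate was negative for 39 of the 41, and its median was −0.76, beside −0.012 over all genes. By kind of segment, 14 of 14 J segments had negative estimates (median −0.73), as had 21 of 23 V segments (median −0.76). All 3 CD25+ progenitor libraries lay below all 3 conventional libraries for 30 of the 41 members, while 20.3% of all genes were lower in this way.

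Trbc1 (chr6:41538218-41539881) measured 214, 252 and 257 CPM in conventional cells against 129, 137 and 146 CPM in CD25+ progenitors, with no overlap, and fell by 0.81 ± 0.10 on the log2 scale (edgeR adjusted p = 2e-05). Trbc2 (chr6:41546730-41548352) measured 253, 324 and 315 CPM against 186, 186 and 207 CPM, again without overlap, and fell by 0.62 ± 0.13 (edgeR adjusted p = 0.0038). The constant regions are close copies of each other, so the authors' counting may have split their reads unevenly.

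Of the V segments, Trbv3 and Trbv29 were called in this comparison. Trbv3 (chr6:41048290-41048828), the most used V segment here, was at 48.9, 68.0 and 53.9 CPM in conventional cells and 38.0, 37.4 and 43.5 CPM in CD25+ progenitors, and fell by 0.52 ± 0.16 (edgeR adjusted p = 0.041). Trbv29 (chr6:41271394-41271881) was at 7.40, 8.56 and 10.5 CPM against 3.20, 4.34 and 2.28 CPM, and fell by 1.43 ± 0.42 (edgeR adjusted p = 0.034). Neither segment overlapped between the 2 gates. Both calls were lost when some single libraries were left out: Trbv3 in 11 of 15 such fits, and Trbv29 in 8 of 15. The estimates in those 15 fits ran from −0.62 to −0.36 for Trbv3 and from −1.69 to −1.22 for Trbv29.

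All libraries of a fit share its estimate of the spread. Without the Bst2+ libraries 40 members passed the filter and 23 of them fell in CD25+ progenitors against conventional cells, where 14.3% of all genes fell. These were 17 of 22 V segments, 4 of 14 J segments and both constant regions. The 4 most used segments among them had log2 fold changes of −0.52 ± 0.11 for Trbv3, −0.76 ± 0.15 for Trbv15, −0.93 ± 0.15 for Trbv13-2 and −0.77 ± 0.18 for Trbv13-1. Of the 22 V segments only Trbv12-1 had a positive estimate, at 0.17 ± 0.21 (edgeR adjusted p = 0.62).

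**Figure D2:**
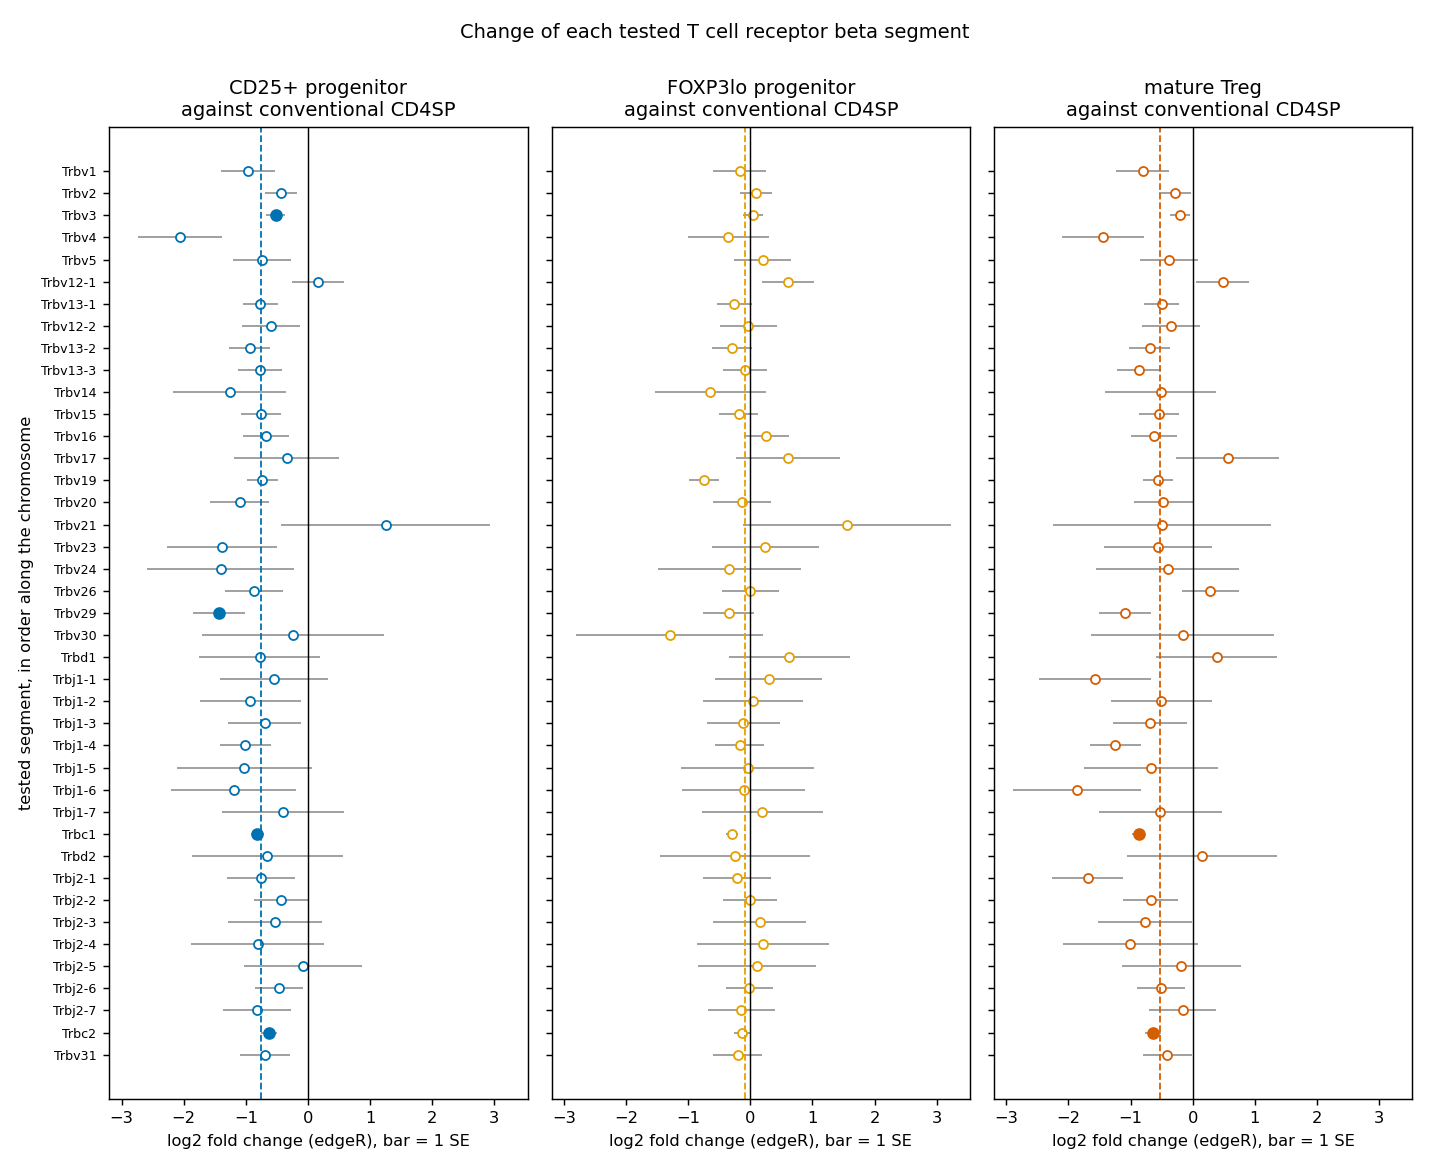
Log2 fold change (x axis, edgeR fit on all 15 libraries, bar = 1 SE) of the 41 tested members in order along the chromosome (y axis), in CD25+ progenitors, FOXP3lo progenitors and mature Tregs, each against the same conventional libraries. Filled points passed the adjusted p threshold of 0.05 and the dashed line is the median of the 41, at −0.76, −0.09 and −0.52.

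In FOXP3lo progenitors against conventional cells edgeR called 0 of the 41 members, where 8.71% of all genes were called. An unadjusted p under 0.05 was reached by 2 members, and limma-voom called 1 (beside 10.9% of all genes) and DESeq2 2 (beside 15.1%). The median estimate was −0.09, and 26 of the 41 estimates were negative. The libraries of the 2 gates did not overlap for 5 members lower and 1 higher in FOXP3lo progenitors, beside 19.9% and 18.9% of all genes. Without the Bst2+ libraries 3 of 40 members were called: Trbc1 (−0.29 ± 0.08, edgeR adjusted p = 0.0034) and Trbv19 fell, beside 12.3% of all genes, and Trbv12-1 rose (0.62 ± 0.21, edgeR adjusted p = 0.024), beside 12.8%. Against FOXP3lo progenitors, 3 members fell in CD25+ progenitors: Trbv3 by 0.57 ± 0.16 (edgeR adjusted p = 0.017), Trbc1 by 0.52 ± 0.10 (edgeR adjusted p = 0.00084) and Trbc2 by 0.50 ± 0.13 (edgeR adjusted p = 0.013). These 3 of 41 stand beside 9.17% of all genes that fell in that comparison, and 22 of 40 fell without the Bst2+ libraries, beside 19.7% of all genes.

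In mature Tregs against conventional cells, 2 of 41 members fell, both constant regions, where 5.73% of all genes fell. Trbc1 was at 122, 130 and 143 CPM and fell by 0.87 ± 0.10 (edgeR adjusted p = 7.9e-06), and Trbc2 was at 177, 193 and 203 CPM and fell by 0.64 ± 0.13 (edgeR adjusted p = 0.003). Both also fell against FOXP3lo progenitors, by 0.58 ± 0.10 and 0.51 ± 0.13 (edgeR adjusted p = 0.0015 and 0.032), where 2.21% of all genes fell. The Trbc2 call against FOXP3lo progenitors was lost in 7 of 15 fits without a single library. Without the Bst2+ libraries, 15 of 40 members fell against conventional cells (9 V, 4 J and 2 C), beside 15.3% of all genes. The mature Treg and conventional libraries did not overlap for 20 of 41 members lower and 1 higher, beside 20.1% and 19.2% of all genes. Without the Bst2+ libraries 8 members fell against FOXP3lo progenitors, beside 9.29%. The 3 comparisons with conventional cells share the conventional libraries, so their counts are not independent of each other. For the interaction of CD25 and FOXP3, which compares the CD25 difference with and without FOXP3, edgeR called 0 of 41 members, where 2.35% of all genes were called. An unadjusted p under 0.05 was reached by 1 member there, and limma-voom and DESeq2 called 0, beside 2.79% and 4.3% of all genes.

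Between the 2 CD25+ gates 0 of 41 members were called by edgeR, where 6.78% of all genes were higher in mature Tregs and 6.26% lower, and limma-voom and DESeq2 also called 0, beside 15.1% and 18.1% of all genes. An unadjusted p under 0.05 was reached by 1. Without the Bst2+ libraries, 4 of 40 members were higher in mature Tregs than in CD25+ progenitors, beside 15.9% of all genes. They were Trbd1, Trbj2-7 at 0.66 ± 0.26 (edgeR adjusted p = 0.048), Trbv3 at 0.32 ± 0.11 (edgeR adjusted p = 0.03) and Trbv26 at 1.15 ± 0.28 (edgeR adjusted p = 0.0013). Trbv26, which is not among the most used segments, was singled out after its values were seen.

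V segment usage, the share of each segment in the counts per kb of all V segments, was concentrated on few segments in all gates. Averaged over the 15 libraries, Trbv3 took 16.1%, Trbv15 11.9%, Trbv13-2 9.98%, Trbv13-1 8.17%, Trbv2 7.28%, Trbv12-1 5.35%, Trbv13-3 5.07% and Trbv19 4.30%. These 8 segments together held 68.1% of usage, and 61.3% to 72.9% in single libraries. Trbv1, far upstream of the other V segments, took 2.99%, and Trbv31, which lies beyond Trbc2 and joins by inversion, took 1.98%. The members of the Trbv12 and Trbv13 families resemble each other closely, so their separate shares are uncertain.

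The 12 V pseudogenes that failed the filter were nearly silent: 5 had no count in any library and the most counted of them had 58 counts over all 15. Trbv29 differed, with 1583 counts and 2.68% of usage although RefSeq annotates it as a pseudogene. Other genes inside the window were also low. Of the 28 that are not members, among them the trypsinogen genes, 22 had no count and all held 540 counts together, of which 429 fell on an unnamed gene (ENSMUSG00000103586) whose exons overlap Trbv4 and Trbv5. Counts of Trbv4 and Trbv5 can therefore be incomplete.

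**Figure D3:**
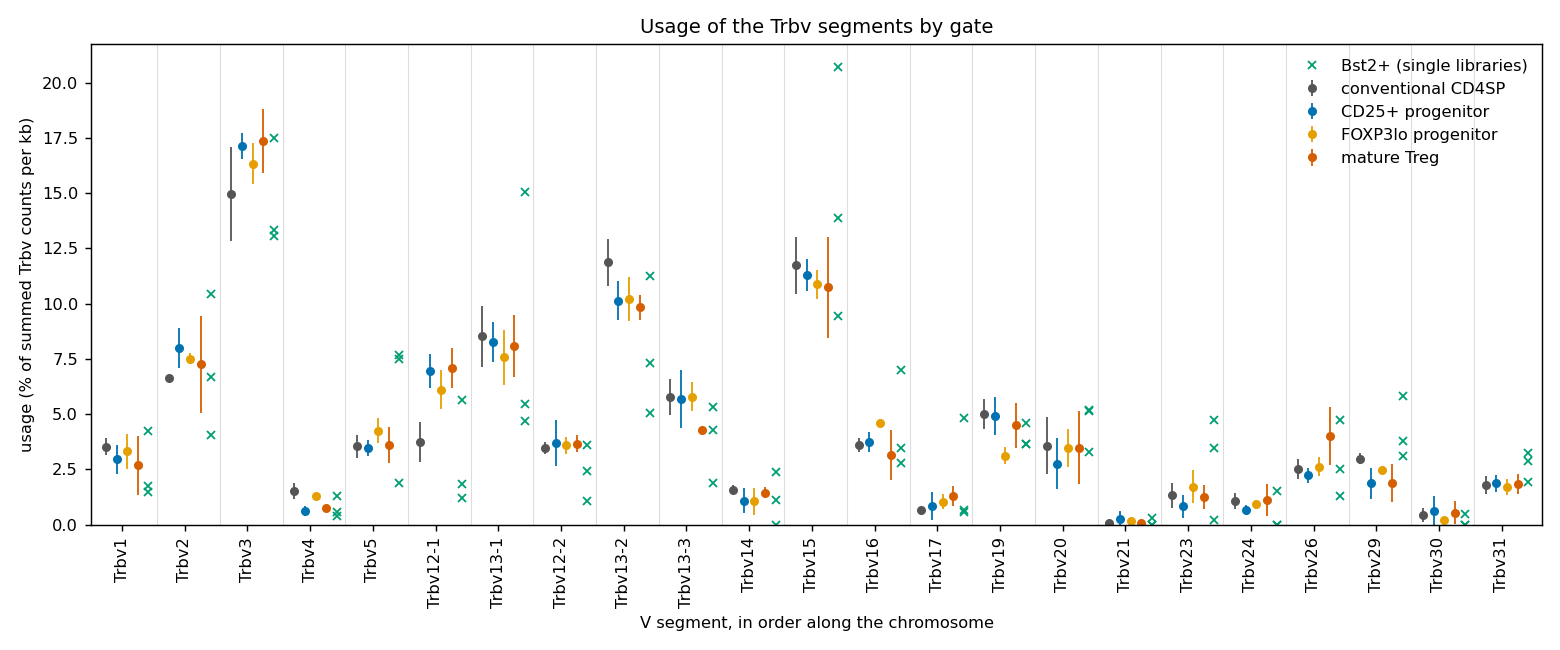
Usage of the 23 tested V segments (y axis, % of summed Trbv counts per kb) in order along the chromosome (x axis). Points and bars are the mean and 1 SD of 3 libraries for the 4 Bst2- gates, and crosses are the 3 single Bst2+ libraries. Trbv12-1 sits lower in conventional cells (mean 3.73%) than in the other Bst2- gates (6.11% to 7.08%), and the Bst2+ crosses scatter most at Trbv13-1 and Trbv15.

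Libraries of the 4 Bst2- gates were compared by their whole V usage, without a test. The distance between libraries, taken as the summed absolute difference in usage divided by 2, averaged 9.99 percentage points for 12 pairs of the same gate. It averaged 11.4 points for 18 pairs of other gates with the same replicate number and 10.7 points for 36 pairs that shared neither. The effective number of V segments, the exponential of the Shannon entropy of usage, was 16.1 ± 0.657 in conventional cells, 15.8 to 16.1 in FOXP3lo progenitors, 15.6 ± 0.335 in mature Tregs and 15.2 ± 0.192 in CD25+ progenitors. The CD25+ progenitor libraries, at 15.01 to 15.4, lay below all conventional libraries, at 15.6 to 16.8.

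Trbv12-1 (chr6:41113550-41114067) was the segment whose usage set conventional cells apart from all 3 Treg-lineage gates. It made up 2.94%, 3.55% and 4.70% of usage in conventional cells. It made up 8.13%, 6.69% and 6.43% in mature Tregs, 6.22%, 7.75% and 6.88% in CD25+ progenitors, and 6.85%, 5.11% and 6.37% in FOXP3lo progenitors. All 9 libraries of the 3 gates lay above the 3 conventional libraries. As a level relative to all RNA, Trbv12-1 did not pass in these comparisons in the full fit, with log2 fold changes of 0.16 ± 0.42, 0.61 ± 0.42 and 0.48 ± 0.42.

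To test segments against each other, the fit was repeated with libraries scaled to their summed Trbv counts, an alternative chosen after the data were seen. This scaling moved the median log2 fold change of all genes to 0.68, 0.06 and 0.39 in CD25+ progenitors, FOXP3lo progenitors and mature Tregs without the Bst2+ libraries, so values here speak only of the balance within the locus. On this scale and without the Bst2+ libraries, Trbv12-1 was higher than in conventional cells by 0.88 ± 0.21 in CD25+ progenitors (edgeR adjusted p = 0.00041), 0.71 ± 0.21 in FOXP3lo progenitors (edgeR adjusted p = 0.012) and 0.91 ± 0.21 in mature Tregs (edgeR adjusted p = 0.00048). In CD25+ progenitors Trbv4, named after its value was seen, was the 1 member called lower on this scale (−1.34 ± 0.45). Counts of Trbv4 can be incomplete, since 295 of its 393 exon bases also lie in an overlapping unnamed gene. All genes called higher and lower on this scale were 53.0% and 1.98% in CD25+ progenitors, 10.9% and 7.19% in FOXP3lo progenitors, and 34.8% and 5.28% in mature Tregs. The adjustment of p runs over all genes tested. Where this scaling raised the share called, in CD25+ progenitors and mature Tregs, a larger unadjusted p could therefore pass for the members. With all 15 libraries on the V scale, 0 of 41 members were called against conventional cells in these 3 gates, where 29.9%, 3.67% and 13.7% of all genes were called, and Trbv12-1 had edgeR adjusted p of 0.122, 0.541 and 0.165.

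Among the other frequent segments, Trbv19 (chr6:41178375-41179048) had its lowest usage in FOXP3lo progenitors, at 2.69% to 3.48% against 3.60% to 5.93% in the other Bst2- libraries. It was at 24.0, 23.2 and 23.2 CPM in conventional cells and 11.8, 13.6 and 16.6 CPM in FOXP3lo progenitors, without overlap, and the log2 fold change of −0.74 ± 0.25 missed the threshold in the full fit (edgeR adjusted p = 0.076). It passed without the Bst2+ libraries (−0.74 ± 0.19, edgeR adjusted p = 0.0021) and with the V scaling added (−0.68 ± 0.20, edgeR adjusted p = 0.013). In the fit without Bst2+ libraries Trbv19 was also the 1 of 40 members called for the interaction of CD25 and FOXP3, at 0.92 ± 0.27 (edgeR adjusted p = 0.017), beside 5.46% of all genes called higher. As a level, CD25+ progenitors were in the same range as FOXP3lo progenitors, at 11.8, 16.5 and 14.1 CPM.

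None of the other 6 of these 8 frequent segments was called by edgeR on the V scale among the Bst2- gates without the Bst2+ libraries. Trbv3 took 17.1% in CD25+ progenitors, 17.4% in mature Tregs, 16.3% in FOXP3lo progenitors and 14.96% in conventional cells, with overlapping libraries. Trbv13-2 took 10.7% to 12.6% in conventional cells and 9.44% to 10.5% in mature Tregs, without overlap. Trbv13-3 took 4.22% to 4.36% in mature Tregs and 4.66% to 7.17% in the 9 other Bst2- libraries.

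The constant region used next differed between conventional cells and the Treg-lineage gates. Trbc1 made up 43.8%, 41.8% and 42.9% of the Trbc counts per kb in conventional cells. It made up 39.0%, 40.4% and 39.4% in CD25+ progenitors, 40.0%, 40.3% and 40.0% in FOXP3lo progenitors and 38.9%, 38.4% and 39.4% in mature Tregs. The 9 libraries of these 3 gates, at 38.4% to 40.4%, did not reach the conventional range of 41.8% to 43.8%. The difference was −3.32 percentage points (exact two-sided permutation test, p = 0.00909, the smallest possible with 3 against 9 libraries; 0.0273 after Benjamini-Hochberg adjustment over 6 tests). With a replicate block this call was lost (exact two-sided permutation test, adjusted p = 0.0625).

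Grouped by CD25, the Trbc1 share was 39.3% ± 0.671 in the 6 CD25+ libraries and 41.5% ± 1.65 in the 6 CD25- libraries, a difference of −2.22 points (exact two-sided permutation test, p = 0.00866, adjusted 0.0273). This call too was lost with a replicate block (exact two-sided permutation test, adjusted p = 0.0625). The libraries of these 2 sets overlapped, since FOXP3lo progenitors lay near the CD25+ gates. This grouping holds the same conventional libraries as the comparison of conventional cells with the 3 other gates, so the 2 tests are not independent. Grouped by FOXP3, the difference was −1.74 points (exact two-sided permutation test, p = 0.0736, adjusted 0.110). With a single library left out, the first 2 differences stayed negative, at −3.85 to −2.83 and −2.52 to −1.75 points. Each then passed the adjusted threshold in 5 of 12 repeats and missed it without conventional replicates 40, 42 or 43, CD25+ progenitor replicates 40 or 43, or mature Treg replicates 40 or 43 (exact permutation tests, adjusted p of 0.0519 to 0.109). The smallest p that a test can give is higher with fewer libraries. In the comparison with conventional cells the 2 sets stayed apart whichever library was left out, so p was each time the smallest possible. Its missed thresholds thus depend on the number of arrangements and on the adjustment over 6 tests. In the grouping by CD25 the sets overlapped, and the part of fewer libraries in its missed thresholds was not tested. Some repeats also gave smaller differences than the −3.32 and −2.22 points of all libraries.

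The Trbj1 cluster, which precedes Trbc1, gave a wider spread. It held 49.9%, 55.7% and 52.6% of the J counts in conventional cells, 47.9%, 47.4% and 48.0% in CD25+ progenitors, and 52.3%, 52.0% and 53.0% in FOXP3lo progenitors. It held 43.3%, 54.9% and 44.4% in mature Tregs, where replicate 42 lay apart from the other 2. The CD25+ libraries differed from the CD25- libraries by −4.97 points, which missed the threshold (exact two-sided permutation test, p = 0.0281, adjusted 0.0563). Leaving out single libraries gave differences of −6.42 to −4.12 points, and the threshold was passed without mature Treg replicate 42 alone (−6.42 points, exact two-sided permutation test, adjusted p = 0.0260). Grouping by FOXP3 gave a difference of −0.246 points (exact two-sided permutation test, p = 0.920, adjusted 0.920), and the 9 Treg-lineage libraries differed from conventional cells by −3.51 points (exact two-sided permutation test, p = 0.191, adjusted 0.229).

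**Figure D4:**
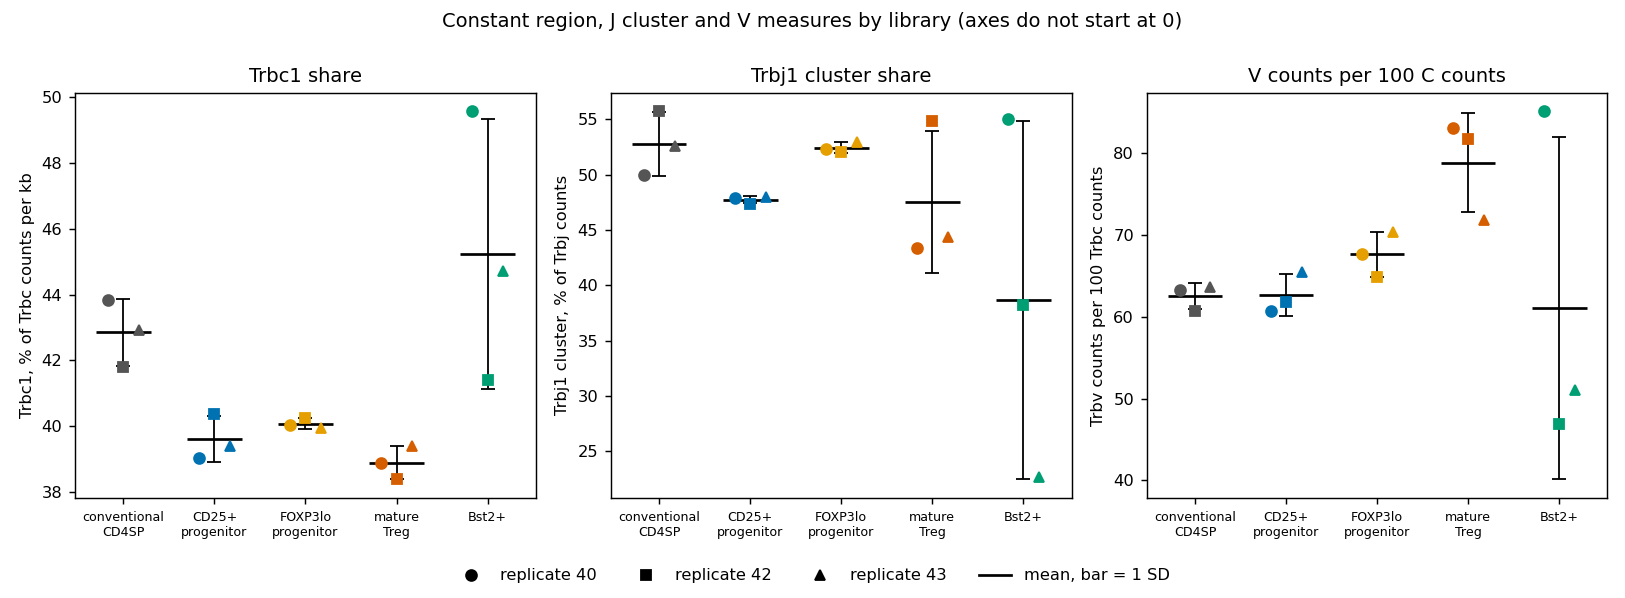
Trbc1 share of Trbc counts per kb, Trbj1 cluster share of Trbj counts and Trbv counts per 100 Trbc counts (y axes, which do not start at 0) in each library (points, shaped by replicate number) of the 5 gates (x axes), with mean (line) and 1 SD (bar) of 3 libraries. Conventional cells sit above the 3 other Bst2- gates in Trbc1 share, mature Tregs sit highest of the Bst2- gates in V per 100 C, and Bst2+ libraries spread widely in all 3 panels.

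Single J segments are exons of about 50 bases, and counts on them include primary transcripts, which still hold J segments downstream of the joined segment. The 4 most counted over the 15 libraries were Trbj1-4 (12.9% of J counts), Trbj2-2 (11.4%), Trbj2-7 (10.5%) and Trbj1-3 (9.37%). Trbj2-6, annotated as a pseudogene, took 9.18%. Trbj2-4 and Trbj1-1 were lowest, at 1.26% and 1.52%. These 2, and segments named below for a high or a zero share in a Bst2+ library, were singled out after their values were seen. All 14 J segments had counts in each of the 12 Bst2- libraries.

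In mature Tregs the Trbj2-7 share lay above those of all 9 other Bst2- libraries, a difference in share that was not tested, and edgeR called 0 of 14 J segments in mature Tregs against any of these gates with all 15 libraries. Trbj2-7 (chr6:41543810-41543856), the last segment before Trbc2, made up 15.1%, 13.2% and 15.1% of J counts there and 7.62% to 10.9% in the 9 other Bst2- libraries. Its level in mature Tregs, 8.49, 7.61 and 8.22 CPM, was close to the 8.70, 8.19 and 10.3 CPM of conventional cells (log2 fold change −0.16 ± 0.54, not called). Estimates of the other 13 J segments ran from −1.86 to −0.19, with none called. Trbj1-4 was at 7.83, 7.68 and 4.47 CPM against 13.2, 18.5 and 15.5 CPM, without overlap, at −1.24 ± 0.41 (edgeR adjusted p = 0.058). Without the Bst2+ libraries Trbj1-4 fell by 1.24 ± 0.23 (edgeR adjusted p = 3.5e-05). In that fit 4 of 14 J segments were lower in mature Tregs than in conventional cells, beside 15.3% of all genes. Against FOXP3lo progenitors 4 were lower, beside 9.29%, and against CD25+ progenitors 1 was higher, beside 15.9%. On the V scaling without the Bst2+ libraries, 4 members were called lower in mature Tregs than in conventional cells, beside 5.28% of all genes. These were Trbj1-4 (−0.84 ± 0.25), Trbj1-6 (−1.44 ± 0.43), Trbj2-1 (−1.27 ± 0.39) and Trbc1 (−0.46 ± 0.12). Trbj1-6 and Trbj2-1 were singled out here after their values were seen.

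**Figure D5:**
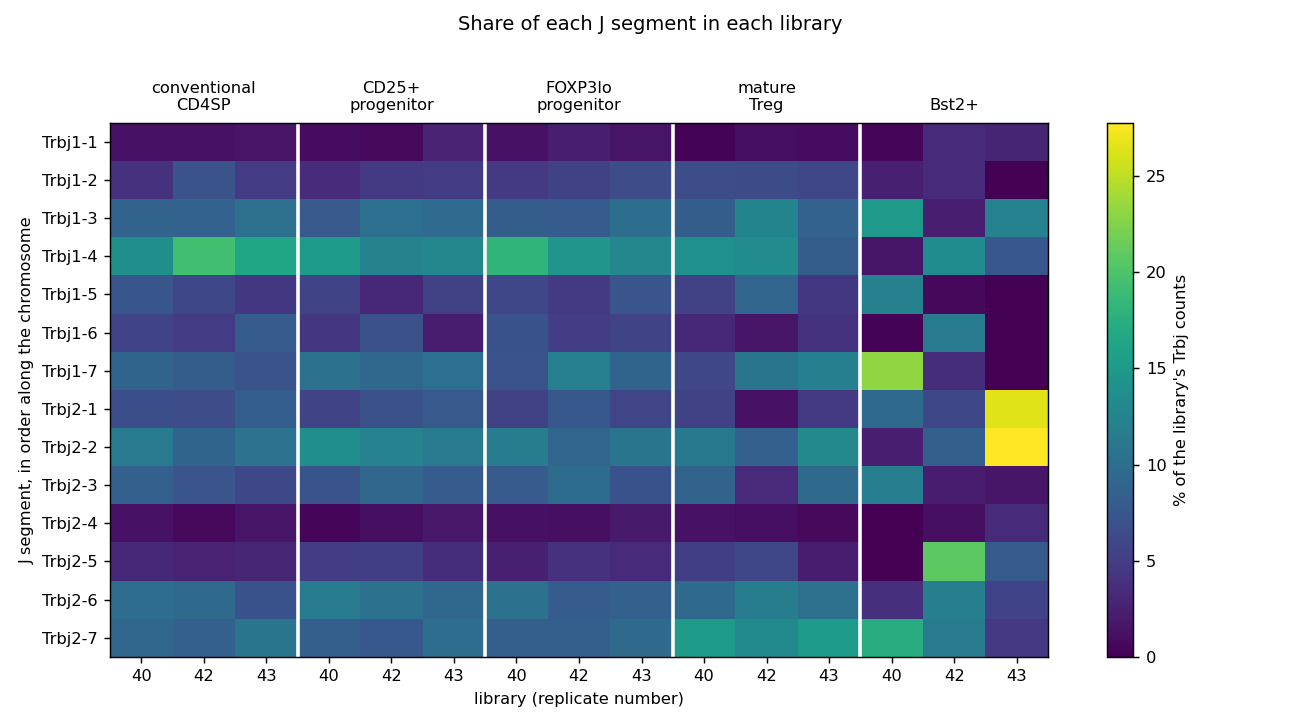
Share of each of the 14 J segments (rows, in order along the chromosome) in the J counts of each of the 15 libraries (columns, grouped by gate, labelled by replicate number), as a colour scale in %. The Trbj2-7 share is higher in the 3 mature Treg libraries (13.2% to 15.1%) than in the other 9 Bst2- libraries, and each Bst2+ library has its own leading segments.

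The Bst2+ libraries differed from each other more than any pair of Bst2- libraries did. The V usage distance averaged 28.9 percentage points over the 3 pairs of Bst2+ libraries, none under 19.5, and reached at most 15.7 points between Bst2- libraries. The J share distance averaged 59.5 points, against 11.9 points within the other gates. Library 40 led with Trbj1-7 (23.2% of J counts), library 42 with Trbj2-5 (20.8%) and library 43 with Trbj2-2 (27.8%). Trbj1-2, Trbj1-5, Trbj1-6 and Trbj1-7 had no count in library 43, which allows a share of up to 0.511% each (3 counts). In V usage, Trbv15 took 20.7%, 13.9% and 9.43% and Trbv13-1 took 4.67%, 5.47% and 15.04% in libraries 40, 42 and 43. Fewer V segments had a count, 19 to 22 against 23 to 26 in the other gates, also when V counts were thinned by calculation to 2979 (20.7 ± 1.53 against group means of 23.3 to 24.5). Summed D levels were 15.3 and 8.57 CPM in libraries 40 and 42, and 0 in library 43, which allows up to 0.189 CPM. The number of sorted cells is not given in the sources used here, and its part in this spread was not tested.

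Against the average of the 3 other CD25 or FOXP3 gates, Bst2+ cells had 5 of 41 members called, 2 higher and 3 lower, where 19.3% and 19.8% of all genes were called. The split by direction differed between tools: limma-voom called 2 higher and 9 lower, beside 16.4% and 24.3% of all genes, and DESeq2 5 higher and 4 lower, beside 22.3% and 21.3%. Trbc1 was at 209, 231 and 193 CPM and higher by 0.47 ± 0.08 (edgeR adjusted p = 0.00017), and Trbv29 was at 11.7, 6.71 and 10.7 CPM and higher by 1.09 ± 0.32 (edgeR adjusted p = 0.012). Trbv12-1 was at 6.23, 13.4 and 2.46 CPM and lower, at −1.17 ± 0.37 (edgeR adjusted p = 0.021). Trbj1-4 was at 1.44, 5.98 and 2.77 CPM and lower, at −1.40 ± 0.37 (edgeR adjusted p = 0.0063). Trbj2-6 was lower at −0.89 ± 0.34 (edgeR adjusted p = 0.046), a call lost in 14 of 15 fits without a single library, and that of Trbv12-1 was lost without Bst2+ replicate 43 (−0.75). The Trbc1 share of 49.6%, 41.4% and 44.7% overlapped the conventional range. The macrophage, dendritic cell and double-positive thymocyte markers given above move with this comparison, and their part in it was not tested.

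The alpha, CD3 and zeta chains, which pair with or carry the beta chain, fell in both CD25+ gates, and so did Lck of the CD4 T cell list. The zeta chain fell in FOXP3lo progenitors too. The CD4 T cell list holds 6 genes, among them Cd3d, Cd3e and Trac. Against conventional cells, 4 of the 6 fell in CD25+ progenitors and 5 in mature Tregs, beside 5.66% and 5.73% of all genes. The medians of the 6 were −0.44 and −0.49. The kinase Lck fell in both gates (−0.43 ± 0.08 and −0.47 ± 0.08). Cd4 fell in mature Tregs (−0.69 ± 0.11) and, without the Bst2+ libraries, also in CD25+ progenitors (−0.33 ± 0.06), and Cd5 was called in neither. In FOXP3lo progenitors 1 gene of this list rose and 0 fell, beside 4.88% and 3.83% of all genes. Without the Bst2+ libraries 1 rose and 1 fell there, beside 12.8% and 12.3%. Of 10 genes of the receptor complex, 5 fell and 4 rose in CD25+ progenitors against conventional cells, beside 5.66% and 5.98% of all genes. The 5 were the CD3 chains Cd3d (−0.46 ± 0.09), Cd3e (−0.48 ± 0.08) and Cd3g (−0.54 ± 0.13), the zeta chain Cd247 (−0.52 ± 0.11) and the alpha constant region Trac (−0.45 ± 0.12). The 4 were Ptcra, the pre-T alpha chain that pairs with beta before alpha is joined, and the gamma constant regions Trgc1, Trgc2 and Trgc4. Mean levels of those 4 in CD25+ progenitors were 4.21 (Ptcra) to 15.1 CPM (Trgc2), against 0.0193 to 0.554 CPM in conventional cells. In mature Tregs the same 5 fell, by 0.34 to 0.70, and Trgc2 and Trgc4 rose, beside 5.73% and 6.45% of all genes. In FOXP3lo progenitors 1 of the 10 was called with all libraries, Cd247 at −0.47 ± 0.11, beside 8.71% of all genes. Without the Bst2+ libraries 3 were called, Cd247, Cd3g (−0.20 ± 0.07) and Trgc1, all lower, beside 12.3% of all genes that fell. The counts of the 10 in the CD25+ gates were the same without the Bst2+ libraries. In that fit 14.3% of all genes fell and 14.7% rose in CD25+ progenitors, and 15.3% and 15.1% in mature Tregs. Medians of the 10 were −0.27, −0.12 and −0.07 in CD25+ progenitors, mature Tregs and FOXP3lo progenitors, beside −0.012, −0.0085 and −0.017 over all genes. The gamma constant regions are also markers of gamma-delta T cells, whose 5 markers summed to 38.3 to 44.6 CPM in CD25+ progenitors and 14.97 to 22.95 CPM in conventional cells with none at 0 in either. That sum includes Trgc1, Trgc2 and Trgc4, the 3 of the 5 that rose, beside 5.98% of all genes. The other markers, Trdc and Sox13, were not called in this comparison with all 15 libraries. The part of such cells was not tested.

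Genes that assemble the locus differed between the 2 CD25+ gates. Of 13 genes of recombination and end joining, 5 rose and 1 fell in CD25+ progenitors against conventional cells, beside 5.98% and 5.66% of all genes. Rag1, a recombinase subunit, was at 40.9 to 72.5 CPM against 0.696 to 6.11 CPM, and Dntt, the polymerase that adds untemplated bases at junctions, at 76.5 ± 14.7 against 25.1 ± 3.87 CPM. Rag2, Xrcc5 and Xrcc6 were the other genes that rose, and Paxx fell. In mature Tregs, whose constant regions were as low, 0 of the 13 rose and 2 fell, Dntt (−1.58 ± 0.26) and Paxx (−1.33 ± 0.29), beside 6.45% and 5.73% of all genes. In FOXP3lo progenitors 0 rose and Dntt fell by 2.44 ± 0.27, beside 4.88% and 3.83%. With the Bst2+ libraries left out, 2 of the 13 rose and 2 fell in each of these gates, where 15.1% of all genes rose and 15.3% fell in mature Tregs and 12.8% and 12.3% in FOXP3lo progenitors. Those that rose were Polm (0.61 ± 0.16 in mature Tregs and 0.68 ± 0.15 in FOXP3lo progenitors) and Prkdc (0.26 ± 0.08 and 0.36 ± 0.08), and beside Dntt, Xrcc6 fell in FOXP3lo progenitors (−0.32 ± 0.10). In Bst2+ cells, Rag1 reached 397 ± 119 CPM and Dntt 504 ± 151 CPM. The 6 markers of CD8 and double-positive thymocytes, 4 of which stand in these lists, summed to 155 to 202 CPM in CD25+ progenitors, 52.4 to 89.4 CPM in conventional cells and 35.8 to 42.1 CPM in mature Tregs. Those 4, Rag1, Rag2, Dntt and Ptcra, rose in CD25+ progenitors against conventional cells, beside 5.98% of all genes. The 2 others, Cd8a and Cd8b1, were not called with all 15 libraries. Without the Bst2+ libraries 4 of the 6 rose and 1 fell, beside 14.7% and 14.3% of all genes. Whether such cells take part in the lower beta transcripts of CD25+ progenitors was not tested.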

How the data were processed

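Bulk RNA of 15 sorted thymocyte libraries (SMARTer Stranded Total RNA-Seq Pico v2) was deposited as raw counts of read pairs for 55573 Ensembl genes. Per the file headers, the authors counted with featureCounts 1.6.2 on Ensembl 97 (GRCm38), with both ends mapped, mapping quality of at least 10 and strand setting 2. The submitters' processing notes name Trimmomatic 0.33, HISAT2 2.1.0 and featureCounts 1.4.6, a different version. Genes were named by position against RefSeq GRCm38.p6 (Jaccard overlap of at least 0.5), which matched all 53 RefSeq entries of the locus, at an overlap of at least 0.508.

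Differences were tested in R 4.3.3 with edgeR 4.0.16 (robust quasi-likelihood test, filterByExpr, TMM, 5 group means, Benjamini-Hochberg over all genes tested). CPM are counts per 1000000 of TMM-scaled library size. V usage and the Trbc1 share used counts per kb of exon, and J shares used counts. Alternatives were limma 3.58.1 (voom) and DESeq2 1.42.0, other factors and filters, a replicate block and left-out libraries. Tests were tried on simulated data first.

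Genes named are the C and D members, the 8 V and 4 J segments with the highest mean share, members called in any of 7 comparisons, Trbv1 and Trbv31, and others where the text says so. Members and lists were chosen with earlier results of these data known. Same-numbered libraries of different gates did not deviate together (correlations of −0.016 to 0.0423), so numbers were not used as pairs. Replicates were not duplicates. Counts include copies made by amplification, so floors of 3 counts cover counting error only. The macrophage and dendritic cell, B cell, gamma-delta T cell, NKT cell and thymic epithelium lists summed to at most 7.10, 2.83, 44.6, 5.11 and 12.6 CPM in Bst2- libraries, and to 715, 20.4, 293, 2.18 and 40.7 CPM in Bst2+ libraries; Il2rb of the NKT list was not matched. The gate genes Foxp3 and Il2ra averaged 0.951 and 9.07 CPM in conventional cells, 3.20 and 289 CPM in CD25+ progenitors, 290 and 107 CPM in FOXP3lo progenitors, 598 and 1152 CPM in mature Tregs, and 25.8 and 244 CPM in Bst2+ cells.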

Additional observations from a re-analysis of the deposited data

How the results depend on the processing

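The count of called members (of 36 to 48 tested) depended on which libraries and tool shared the error. In CD25+ progenitors against conventional cells it was 4, and became 2 with the replicate block, 8 with limma-voom, 8 with DESeq2, 23 without the Bst2+ libraries, 0 with libraries scaled to summed Trbv counts, and 2 with that scaling and without Bst2+ libraries. For FOXP3lo progenitors against conventional cells it was 0, and 1 with limma-voom, 2 with DESeq2, 3 without Bst2+ libraries and 2 with the Trbv scaling without them. For mature Tregs against conventional cells it was 2, and 5 with DESeq2, 15 without Bst2+ libraries, and 0 and 5 with the Trbv scaling, with and without Bst2+ libraries. For CD25+ against FOXP3lo progenitors it was 3, and 5, 6, 22 and 0 with limma-voom, with DESeq2, without Bst2+ libraries and with the Trbv scaling. For mature Tregs it was 4 without Bst2+ libraries against CD25+ progenitors (all higher; 0 with them; with the Trbv scaling 0 with them, and 4 without, 1 higher and 3 lower), and against FOXP3lo progenitors 8 without them and 0 with the scaling (2 with all libraries). For Bst2+ cells it was 5, and 11 with limma-voom and 9 with DESeq2.

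Leaving out 1 library at a time gave 2 to 10 called members for CD25+ progenitors against conventional cells (10, 8 and 9 without Bst2+ replicates 40, 42 and 43; 2 without conventional replicates 42 or 43, CD25+ progenitor replicates 40 or 43 or any FOXP3lo library). It gave 0 to 2 for FOXP3lo progenitors (2 without any Bst2+ library, 1 without conventional replicate 40) and 2 to 5 for mature Tregs (5, 5 and 4 without Bst2+ replicates 40, 42 and 43) against conventional cells. It gave 1 to 8 for CD25+ against FOXP3lo progenitors (8 and 7 without Bst2+ replicates 40 and 43, 1 without CD25+ progenitor replicates 40 or 42 or FOXP3lo replicate 43). For mature Tregs it gave 0 to 1 against CD25+ progenitors (1 without Bst2+ replicate 43) and 1 to 3 against FOXP3lo progenitors (1 without CD25+ progenitor replicate 42, any FOXP3lo or any mature Treg library). For Bst2+ cells it gave 4 to 14 (14, 8 and 10 without Bst2+ replicates 40, 42 and 43). The Trbc1 share difference ran from −2.52 to −1.75 points for CD25 and from −3.85 to −2.83 for all 3 gates against conventional cells, and the Trbj1 share difference for CD25 from −6.42 to −4.12. With the replicate block, the Trbc1 share differences stayed −2.22 and −3.32 points with an adjusted p of 0.0625 each in the exact permutation test, so both calls were lost. Fewer arrangements are possible within the block, so the smallest p that this test can give is higher than without it. The block also lost the calls of Trbv3 and Trbv29 in CD25+ progenitors against conventional cells. The block changed no other call of the 7 comparisons. The libraries share only a number, with correlations of −0.016 to 0.0423 for same-numbered pairs.

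For the 16 called changes of single members, 347 values under the other settings kept their direction, 56 of them no longer past the threshold. With libraries scaled to summed Trbv counts, an alternative chosen after seeing the data, estimates in CD25+ progenitors turned positive. Against conventional cells they were 0.18 for Trbv3 (0.18 without Bst2+ libraries) and 0.081 for Trbc2 (0.081), and against FOXP3lo progenitors 0.092 for Trbc1 (0.092), 0.12 for Trbc2 (0.12) and 0.051 for Trbv3 (0.051), since this scale removes a change shared with the V segments. Without pseudogene segments the J sum was 86.8, 84.6 and 50.2 CPM in conventional cells, FOXP3lo progenitors and mature Tregs. Other factors and filters on low counts kept each count of calls within 1.5 times. The effective number of V segments from shares of counts was 14.5, 15.4 and 14.9 in CD25+ progenitors, FOXP3lo progenitors and mature Tregs, and with segments of at least 10 counts in 3 libraries 14.9 and 15.8 in the first 2. Per kb, V per 100 C was 111.5, 109.9, 120.2, 139 and 109.9 and J per 100 C was 257, 256, 285, 253 and 196 in conventional cells, CD25+ progenitors, FOXP3lo progenitors, mature Tregs and Bst2+ cells. D and single J counts are few, so differences there may not be detectable at this depth.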
